A study of Mus musculus with 59 samples.

Results

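The constant CTCF sites are the peaks of the day 0 control list that overlapped, by 1 bp or more, a peak in each of the 14 other CTCF lists of the series. There were 16520 of them among the 28838 peaks of the day 0 control list (57.3%), each an interval of 400 bp on the mouse build mm10. CTCF binding had been mapped by chromatin immunoprecipitation and sequencing in mouse embryonic fibroblasts, on day 0 and on later days of reprogramming. It had also been mapped in mouse embryonic stem (ES) cells, written ESCs here. The 16 lists came from 31 immunoprecipitated samples. The members were chosen by their presence in the CTCF lists, so that presence is given as a description with no test. SMARCA5 overlap, gene position and sequence were not used by the rule. Spacing to other peaks was measured to wild-type ESC peaks that do not overlap the site, in a list that the rule also used. Each list stood for a group of 1 to 3 samples, so no value has a replicate check, and the 95% intervals on shares and on their differences cover counting error only.

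The fibroblasts were OG2-MEFs, which carry a green fluorescent reporter of Oct4. On day 0 they had received an shRNA against luciferase (the control) or against Ctcf. Sorted cells of the same 2 shRNA arms, reprogrammed with doxycycline-inducible lentiviral OSKM (Oct4, Sox2, Klf4 and c-Myc), were Thy1+ on days 3 and 9, SSEA1- Thy1- and SSEA1+ on days 6 and 9, and Oct4-GFP+ on day 12. The day 10 groups had retroviral OSKM alone, OSKM with Ctcf, or OSKM with Ctcf and an shRNA against Smarca5. The ESCs were of the E14Tg2a line, either wild type or Smarca5 knockout, and SMARCA5 itself was mapped in E14Tg2a cells that overexpressed a Flag-biotin-tagged protein, by streptavidin pull-down. The tagged cells came from single clones, which limits them as a model of the line. The title and the other labels of the day 3 Thy1+ samples disagree on which sample received Ctcf shRNA; exchanging the control and Ctcf shRNA names of these lists leaves the members as they are, since the rule needs both Thy1+ lists. Without both lists there were 16550 constant sites, and the SMARCA5 difference given below was 22.3 points with them and without them. Peak lists measure neither mRNA nor protein, so the labelled cell types and the depletion of CTCF or SMARCA5 could not be checked.

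CTCF is a zinc-finger protein that binds a long, oriented DNA motif. With the cohesin ring it halts the growth of chromatin loops, and pairs of CTCF sites whose motifs point at each other form loop anchors and domain borders. Many CTCF sites are known to be bound in most cell types. SMARCA5, also called SNF2H, is an ATPase of ISWI remodellers, which slide and space nucleosomes, and it is known in mouse ESCs for keeping CTCF motifs accessible.

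Sequence could be read where a constant site overlapped a promoter window, which runs from 250 bases before to 50 bases after a gene start. The following 6 promoters show the CTCF core motif, spelled CCA, any 2 bases, AG, any 2 bases, GGC, inside a constant site. Each line gives RefSeq sequence of GRCm38.p6, 5′ to 3′ along the strand that carries the motif in this orientation, with the 12-base match in capitals and 30 bases on either side.
Rplp0 (chr5:115559260-115559331, plus strand): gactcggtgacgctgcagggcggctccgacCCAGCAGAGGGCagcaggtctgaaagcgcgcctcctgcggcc
Gm36358 (chr1:65112171-65112242, plus strand): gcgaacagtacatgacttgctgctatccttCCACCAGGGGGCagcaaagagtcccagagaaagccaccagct
Agfg1 (chr1:82839348-82839419, plus strand): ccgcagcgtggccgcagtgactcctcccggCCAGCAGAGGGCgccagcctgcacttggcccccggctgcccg
Nmur1 (chr1:86389441-86389512, plus strand): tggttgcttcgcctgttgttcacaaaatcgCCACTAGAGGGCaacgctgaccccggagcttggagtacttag
Rbm17 (chr2:11603327-11603398, plus strand): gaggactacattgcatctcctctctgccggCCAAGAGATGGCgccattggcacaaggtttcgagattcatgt
Snhg7 (chr2:26640296-26640367, minus strand): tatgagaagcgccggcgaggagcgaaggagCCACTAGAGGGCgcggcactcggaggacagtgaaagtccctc

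Rplp0 encodes a protein of the ribosomal stalk and was the only member of the symbol lists described below whose promoter met both conditions. The others follow in genome order among promoters whose constant site also had a SMARCA5 peak, so SMARCA5 at these 6 sites was part of their choice. Agfg1 encodes an ADP-ribosylation factor GTPase-activating protein, Nmur1 a neuromedin U receptor and Rbm17 a splicing factor, Snhg7 hosts small nucleolar RNAs, and Gm36358 is a predicted gene. In all 6 the motif lay upstream of the start site, its position relative to the start being −171 in Rplp0, −76 in Gm36358 and in Agfg1, −115 in Nmur1, −163 in Rbm17 and −87 in Snhg7. The motif was on the gene's own strand in Rplp0, Gm36358, Agfg1 and Snhg7 and on the opposite strand in Nmur1 and Rbm17. Its centre was within 50 bp of the centre of the constant site in each case, from 4 bp in Agfg1 to 46 bp in Rplp0.

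Over all promoters, the core motif was more frequent in windows on constant sites than in windows on other day 0 control peaks. Of 32851 promoter windows, 797 held it on either strand (2.43%). Among the 887 windows that overlapped a constant site, 163 held it (18.4%, 15.97 to 21.1), against 62 of the 627 windows on another day 0 control peak (9.89%, 7.79 to 12.5). The difference was 8.49 percentage points (4.95 to 11.9), and the share in windows on no day 0 control peak was 1.83%. Where 1 mismatch was allowed among the 8 fixed bases, 64.8% of windows on constant sites, 52.8% of those on other day 0 control peaks and 30.6% of all windows had a match. The short core AGNNGGC, which lies within the longer motif, was found in 83.7%, 78.6% and 59.8% of them. A window without the full match may hold CTCF-binding sequence of another spelling, and the parts of a site that lie outside the window were not read.

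Most matches sat near the centres of the constant sites. Over 152 matches, with overlapping windows counted once, the median distance from the motif's centre to the site's centre was 16.5 bp (quartiles 6.75 and 38.25), and 127 (83.6%) were within 50 bp. Whole windows were searched, and the farthest match was 352 bp from the site's centre, outside the 400 bp interval. This distance was not measured at other day 0 control peaks. The matches used 52 different 12-base words. The commonest were CCACCAGGGGGC with 21 matches, CCAGCAGAGGGC, the word in Rplp0 and Agfg1, with 15, CCAGCAGGGGGC with 9 and CCACTAGGGGGC with 8. Of 166 matches over all windows on constant sites, 114 lay on the strand of the gene (68.7%, 61.3 to 75.2). The same share was 52.3% in windows on no day 0 control peak, a difference of 16.3 points (7.88 to 24.1). In windows on another day 0 control peak it was 54.8% of 62 matches, and the interval of that difference, −0.0486 to 27.8 points, included 0.

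The number of other CTCF lists that held a day 0 control peak piled up at the upper end. Besides the 16520 peaks held in all 14, 6361 were held in 13 and 2266 in 12, and at each lower count there were at most 810. Only 263 peaks were in no other list. Of the 6361 peaks that missed by 1 list, 3179 lacked the day 12 Oct4-GFP+ Ctcf shRNA list and 2967 lacked the day 0 Ctcf shRNA list. These lists together account for 96.6% of the near misses, and 1500 further peaks lacked both and no other. With neither list required, 24166 day 0 control peaks were held throughout.

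**Figure D1:**
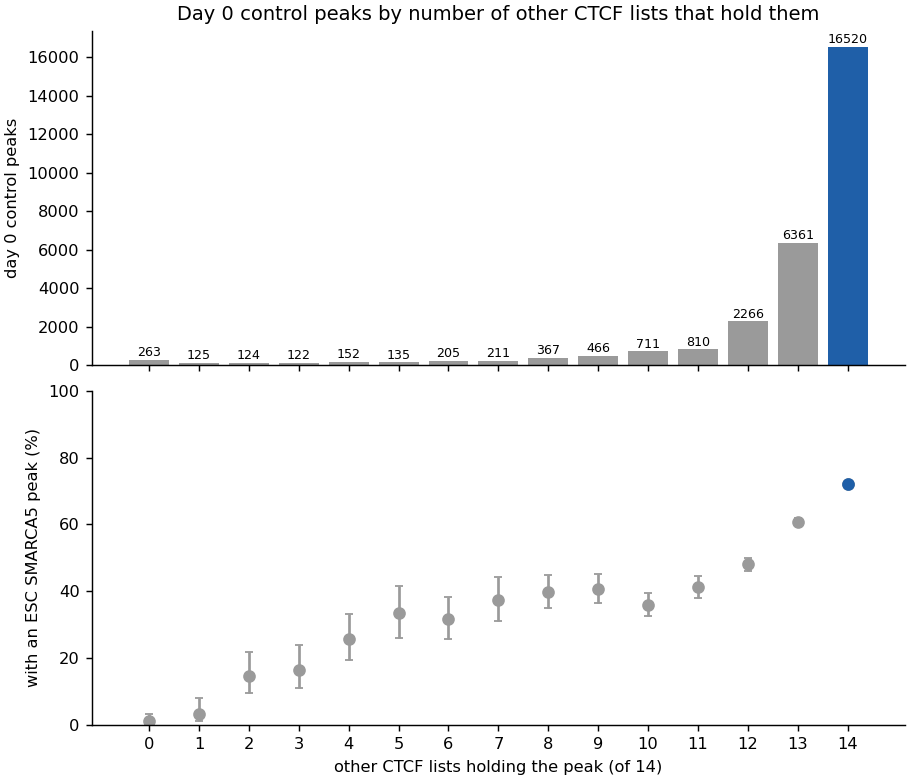
Day 0 control peaks by the number of the 14 other CTCF lists that hold them (upper axis: number of peaks) and the percent of each class with an ESC SMARCA5 peak (lower axis: points with Wilson 95% intervals). The 16520 constant sites are in blue, and the SMARCA5 percent runs from 1.14 in peaks of no other list to 72.2 in constant sites.

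Taken list by list, 12 of the other CTCF lists held between 91.8% (day 10 OSKM) and 96.6% (Thy1+ control) of the day 0 control peaks. The day 0 and day 12 Ctcf shRNA lists held 73.3% and 73.1%. They were also short for their kind, with 23600 peaks on day 0 against 28838 in its control, and 35803 on day 12 against 53043, and the part of list length in the count of constant sites was not tested. Against the 6 other lists without Ctcf shRNA, added Ctcf or loss of Smarca5, 24818 day 0 control peaks were held in each, and the constant sites were 66.6% of these (66.0 to 67.1). The share that constant sites took of a whole list ran from 18.4% of the 89567 peaks in Smarca5 knockout ESCs and 19.9% of the 83173 peaks in wild-type ESCs to 70.0% of the day 0 Ctcf shRNA list. In the sorted control lists it was between 31.3% and 32.6%.

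**Figure D2:**
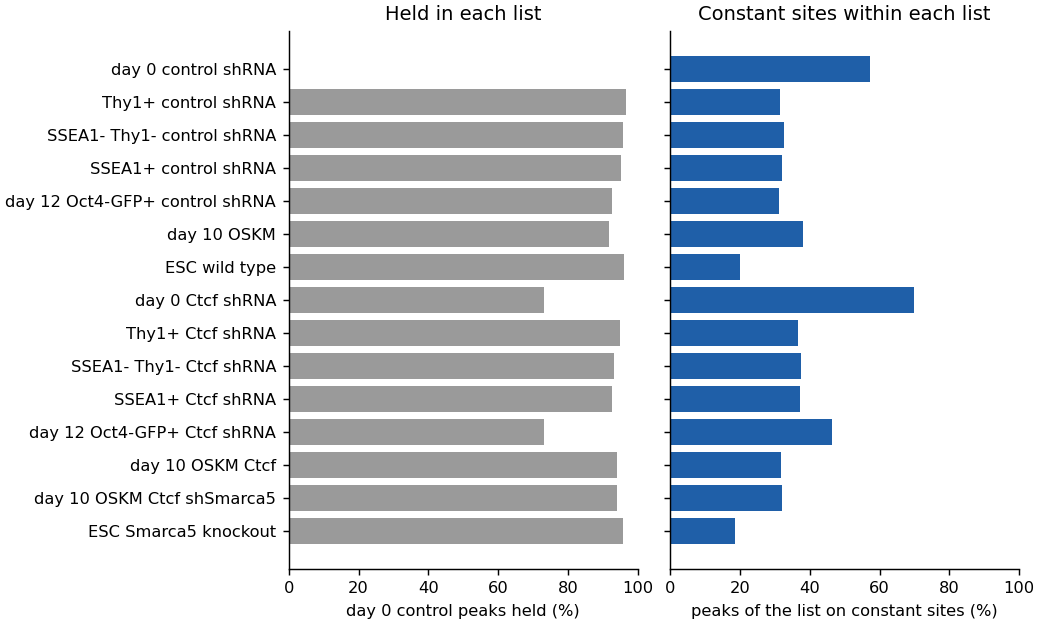
Percent of day 0 control peaks held in each other CTCF list (left, grey bars) and percent of each list's own peaks that lie on a constant site (right, blue bars). The day 0 and day 12 Ctcf shRNA lists hold 73.3% and 73.1% of day 0 control peaks and the other lists at least 91.8%.

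Peak centres moved little between lists at constant sites. The median distance from the day 0 control centre to the nearest centre in another CTCF list was 16 to 19 bp at constant sites, and 23 to 25 bp at the other day 0 control peaks that the list held. In wild-type ESCs 87.8% of constant sites and 77.5% of the other held peaks were within 50 bp. The rule required overlap in these same lists, which limits the shift, so the contrast is a description and not separate evidence. The lists fall into 4 sets with common start positions, so agreement within a set is no separate measurement. Identical starts between the day 0 control list and any other list occurred for at most 1.78% of its peaks.

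SMARCA5 in ESCs occupied more of the constant sites than of the remaining day 0 control peaks. A SMARCA5 peak overlapped 11931 of the 16520 constant sites (72.2%, 71.5 to 72.9) and 6150 of the 12318 others (49.9%, 49.0 to 50.8), a difference of 22.3 points (21.2 to 23.4). The share was 48.6% over all wild-type ESC CTCF peaks and 42.7% over those off constant sites. SMARCA5 was mapped in ESCs, and among the 11163 other day 0 control peaks that wild-type ESCs also held it overlapped 53.7%, which left a difference of 18.6 points (17.4 to 19.7). Seen from the SMARCA5 list, 11932 of its 46965 peaks (25.4%) lay on a constant site.

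SMARCA5 overlap was higher in the more recurrent classes, though not at every step, as the plot of recurrence shows. It was 1.14% for peaks of no other list (0.389 to 3.30), 37.4% for peaks held in 7 lists, 48.0% for those held in 12 and 60.7% for those held in 13, just outside the rule. Peaks that lacked only the day 0 or only the day 12 Ctcf shRNA list had shares of 59.9% and 61.9%, and the interval of their difference included 0 (−4.46 to 0.425 points). The constant sites had the higher share on each of the 20 chromosomes with a constant site, by 9.08 to 29.1 points. All peaks have a score of 0 in the deposited files, so the classes could not be matched for peak height.

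Constant sites lay inside protein-coding genes less often than the other day 0 control peaks. The centres of 7801 (47.2%, 46.5 to 48.0) were within the span of such a gene, against 6419 others (52.1%, 51.2 to 53.0), a difference of −4.89 points (−6.05 to −3.72). The sign was the same on 18 of 20 chromosomes. Among wild-type ESC peaks off constant sites the share was 55.3%. Within 10 kb of a protein-coding gene, genes included, were 71.2% of constant sites and 69.7% of the others, a difference of 1.52 points (0.456 to 2.59). That sign depends on the distance, since within 2.5 kb the difference was −2.45 points, and without the day 0 Ctcf shRNA list it was 0.982 points with an interval that included 0.

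At gene starts the constant sites stood on the upstream side. Start sites came from RefSeq promoter windows, which were not used here for chromosome 18. Within 1 kb of a start were 1249 of 16033 constant sites (7.79%, 7.39 to 8.22) and 1005 of 11938 other day 0 control peaks (8.42%, 7.93 to 8.93), and the interval of this difference included 0 (−1.28 to 0.0164 points). Of these sites, 897 of the 1249 constant (71.8%, 69.3 to 74.2) and 541 of the 1005 others (53.8%, 50.7 to 56.9) were upstream of the start, a difference of 17.99 points (13.996 to 21.9). The peaks held in 13 lists had an upstream share of 60.2%.

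The position changed sharply at the start itself. In the 100 bp before it lay 308 constant sites and in the 100 bp after it 58, while the other day 0 control peaks numbered 161 and 94. Between 100 and 200 bp upstream there were 189 constant sites and 98 others. Beyond about 500 bp on either side each class had between 20 and 48 peaks per 100 bp. The median distance to the nearest start was 17312 bp for constant sites and 20027 bp for the others, so most of both classes lay far from any start.

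**Figure D3:**
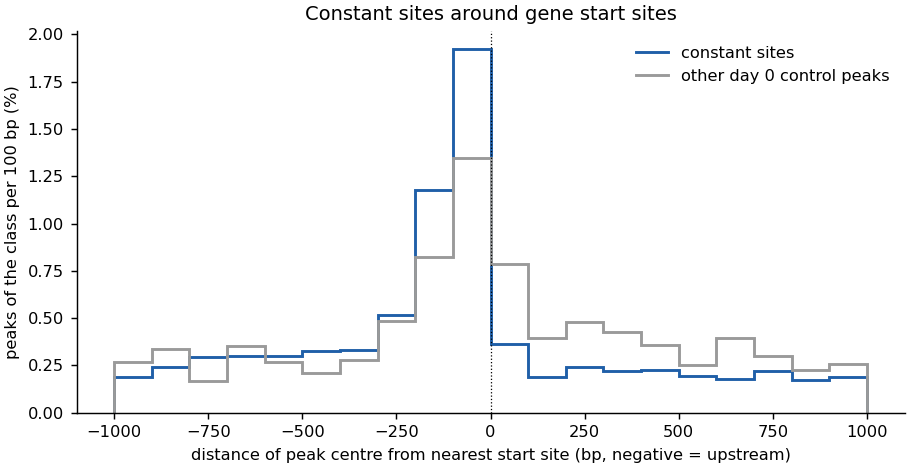
Share of each class of peaks (percent per 100 bp bin) by the distance of the peak centre from the nearest gene start, with negative values upstream; constant sites in blue, other day 0 control peaks in grey. Constant sites peak in the 100 bp before the start (308 sites) and drop to 58 in the 100 bp after it.

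The peaks that missed by 1 list differed in position according to the list they lacked. Of those that lacked only the day 0 Ctcf shRNA list, 4.77% were within 1 kb of a start (4.05 to 5.61), and of those that lacked only the day 12 Ctcf shRNA list 11.1% (10.0 to 12.2), a difference of −6.32 points (−7.68 to −4.96). The constant sites, at 7.79%, lay between them. Another wild-type ESC peak was found within 10 kb of 63.8% of the former and 55.4% of the latter, a difference of 8.44 points (5.99 to 10.9). The shares inside protein-coding genes were 51.0% and 52.8%, with an interval of the difference that included 0 (−4.25 to 0.741 points).

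Constant sites with SMARCA5 were more often near gene starts and near other ESC CTCF peaks than those without. Of constant sites with a SMARCA5 peak 9.59% (9.07 to 10.1) were within 1 kb of a start, and of the 4589 without 3.07% (2.60 to 3.62), a difference of 6.53 points (5.77 to 7.25). Another ESC CTCF peak was within 10 kb of 65.8% and 57.8%, a difference of 8.03 points (6.37 to 9.70). Their shares inside protein-coding genes, 47.8% and 45.7%, differed by 2.11 points (0.413 to 3.81). The core motif was in 143 of 785 promoter windows on constant sites with SMARCA5 (18.2%) and in 20 of 102 without (19.6%), and the interval of this difference, −10.5 to 5.74 points, included 0.

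Neighbouring constant sites were usually more than 10 kb apart. The median centre-to-centre gap between neighbouring constant sites was 56.4 kb (quartiles 21.0 and 145 kb) over 16500 gaps. Close pairs under 10 kb made up 2040 gaps (12.4%), 33 gaps were under 1 kb, the shortest was 811 bp, and no constant peaks overlapped each other. At the other end, 405 gaps were over 1 Mb. Measured against the same wild-type ESC list, constant sites had a mean of 5.93 other ESC peaks (SE 0.0270) within 50 kb on each side and the other day 0 control peaks 5.39 (SE 0.0327), a difference of 0.538 (95% interval from the standard errors, 0.454 to 0.621). The rule required overlap with this ESC list. Against the other day 0 control peaks that wild-type ESCs also held, the difference in mean was 0.544 (0.458 to 0.629). Another ESC peak lay within 10 kb of 63.6% of constant sites and 60.1% of all other day 0 control peaks, a difference of 3.54 points (2.41 to 4.67). The share was 62.2% over all wild-type ESC peaks. It was 63.8% over peaks that lacked only the day 0 Ctcf shRNA list and 55.4% over those that lacked only the day 12 one. A share this high was thus not particular to constant sites. The median distance to the nearest other ESC peak was 7536.5 bp at constant sites and 7685 bp at the other day 0 control peaks.

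The 5 densest 100 kb windows held 8 or 9 constant sites each. The window chr5:122050338-122150337 held 9 constant sites over Cux2, a homeodomain transcription factor gene, Myl2, which encodes a regulatory light chain of cardiac myosin, and Ccdc63, and 8 of the 9 had SMARCA5. Another with 9, of which 8 had SMARCA5, was chr10:80946652-81046651, with the G-protein subunit gene Gng7, Diras1, the zinc transporter gene Slc39a3 and Sgta. On chromosome 1 there were windows of 8 constant sites at Speg, Gmppa, Asic4, Chpf, Tmem198 and Obsl1 (from 75398665), at Nmur1 and Tex44 (from 86371944) and at Phlda3, Lad1 and the troponin genes Tnni1 and Tnnt2 (from 135752954). The Nmur1 window includes the promoter printed above. In the Speg and Nmur1 windows all 8 day 0 control peaks were constant sites.

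The 3 longest gaps were on the X chromosome. They measured 15.0 Mb (chrX:114558522-129547608), 12.3 Mb and 6.23 Mb, and the longest held 22 protein-coding genes, among them the protocadherin gene Pcdh11x, 9 other day 0 control peaks and 38 wild-type ESC peaks. The 12.3 Mb gap held 52 protein-coding genes and 24 ESC peaks. The longest autosomal gap, of 5.62 Mb on chromosome 7, spanned 61 protein-coding genes of which 46 were vomeronasal receptors, the pheromone receptors, and held 30 ESC peaks and 15 SMARCA5 peaks. The next, of 5.40 Mb on chromosome 1, held 3 protein-coding genes, Rgs21, Rgs18 and Brinp3.

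The X chromosome had the lowest share of constant sites. There 303 of 707 day 0 control peaks were constant (42.9%, 39.3 to 46.5), against 57.7% of autosomal peaks and 53.7% to 59.9% of those on single autosomes, an autosomal excess of 14.8 points (11.1 to 18.4). The only day 0 control peak on Y was not constant. The excess followed 5 of the lists: the held share on X minus that on autosomes was −10.9 points in the day 0 Ctcf shRNA list, −10.6 in the day 12 Ctcf shRNA list and −8.72 to −8.00 in the 3 day 10 lists, whereas in the other 9 lists it was between −0.714 and 1.47 points. Without the day 0 and day 12 Ctcf shRNA lists the excess was 5.00 points (2.12 to 8.19), and with the 3 day 10 lists also left out 87.7% of X peaks and 86.4% of autosomal peaks were held throughout.

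SMARCA5 overlap was also low on X, in each of the 3 classes of CTCF peak compared. It was 23.4% of constant sites on X (19.01 to 28.5) against 73.1% on autosomes, 14.4% of other day 0 control peaks against 51.1%, and 16.4% of all wild-type ESC peaks against 49.4%. On X as on the autosomes the constant sites had the higher share. With autosomes alone the difference in SMARCA5 overlap between constant sites and other day 0 control peaks was 22.0 points.

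**Figure D4:**
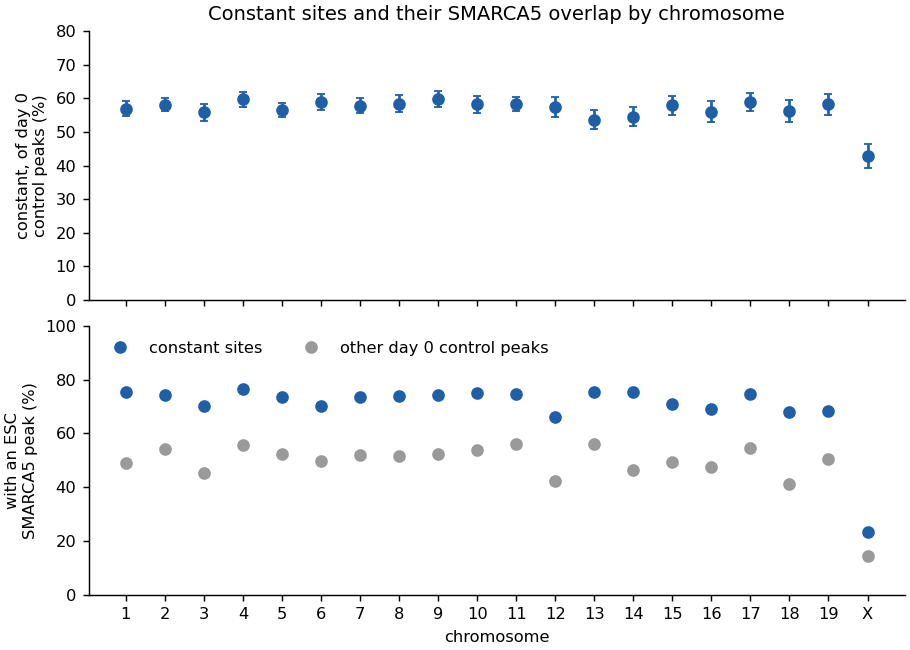
Percent of day 0 control peaks that are constant sites on each chromosome (upper axis, Wilson 95% intervals) and percent with an ESC SMARCA5 peak among constant sites (blue) and other day 0 control peaks (grey; lower axis). The X chromosome is lowest on both axes, with 42.9% constant and 23.4% of its constant sites with SMARCA5.

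A constant site lay within 10 kb of 9886 of the 21887 protein-coding genes (45.2%), and a day 0 control peak of either kind within 10 kb of 13166 (60.2%). Most of the genes reached had 1 (6213 genes) or 2 constant sites (2483). The genes with the most were long. Camta1, a calmodulin-binding transcription activator gene of 802 kb, had 11 constant sites among 20 day 0 control and 54 ESC peaks, and 7 of the 11 had SMARCA5. There were 10 each at 2900026A02Rik, Gse1, the synapsin gene Syn3, the cAMP phosphodiesterase gene Pde4d and the neural adhesion gene Lsamp, and 9 each at the ankyrin gene Ank3, Thsd4, Nav2 and Gm38667, a RefSeq locus on chromosome 18 whose span covers protocadherin genes. SMARCA5 was uneven among these: it overlapped 10 of 10 constant sites at Gse1 and at Pde4d but 2 of 10 at Lsamp.

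The lists of genes that follow were tallied by the same rule, and their shares are read beside the 45.2% of all protein-coding genes. Of the 30 genes of the pluripotency network, 16 had a constant site (53.3%, 36.1 to 69.8), and 22 had a day 0 control peak. Pou5f1, which encodes Oct4, had its only day 0 control peak at a constant site, chr17:35513877-35514276, 5270 bp from the gene's nearest start and with SMARCA5. Sox2 had 1 constant site, chr3:34640666-34641065, 9129 bp from its start and with SMARCA5, out of 2 day 0 control peaks. At the orphan nuclear receptor gene Esrrb and at Tet1, which encodes a 5-methylcytosine oxidase, both day 0 control peaks were constant, 1 of them with SMARCA5 in each gene, among 15 and 12 ESC peaks. The day 0 control peaks of Nr5a2, Dppa2, Dppa3 and Lin28a were not constant.

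Fibroblast and epithelial genes were reached at shares whose intervals included the background. Of the 30 fibroblast and mesenchymal genes 18 had a constant site (60.0%, 42.3 to 75.4). The receptor gene Pdgfra had 3 among 5 day 0 control peaks, 1 of them with SMARCA5. The collagen genes Col1a2 and Col6a1 and the matrix glycoprotein gene Sparc had 2 each, while the day 0 control peaks of Vim, Fbn1, S100a4 and Zeb2 were not constant. Of the 20 epithelial genes 8 had one (40.0%, 21.9 to 61.3): the tight-junction gene Tjp1 had 5, of which 1 had SMARCA5, the E-cadherin gene Cdh1 had 2, the transcription factor gene Grhl2 had 2 and Cldn7 had 1. The day 0 control peaks of Krt8, Esrp1, Ovol1 and Dsg2 were not constant.

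Among the clustered Hox genes, which pattern the body axis, 28 of 39 had a constant site within 10 kb (71.8%, 56.2 to 83.5), and so did 28 of the 31 with any day 0 control peak. The background for the second count is 75.1%, the share among all protein-coding genes with a day 0 control peak. Neighbouring Hox genes share sites, so these genes are not separate observations. The peak chr6:52221608-52222007, with SMARCA5, served both Hoxa3 and Hoxa10, and Hoxb7 and Hoxb8 shared chr11:96278762-96279161 without SMARCA5 and chr11:96294504-96294903 with it. Hoxb3, Hoxb4 and Hoxd13 had day 0 control peaks but no constant site.

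Of 24 imprinted genes, expressed from 1 parental copy, 11 had a constant site (45.8%, 27.9 to 64.9). Usp29 had 4, Cdkn1c and Grb10 2 each, and Igf2, the growth factor gene, had 1 at chr7:142672086-142672485, with SMARCA5 and 5470 bp from its nearest start. The day 0 control peaks near H19, Mest, Peg10 and Sgce were not constant. Of the 20 loci known from work on CTCF loops 16 had one (Wilson interval 58.4% to 91.9%), and the antigen receptor loci among them are very long: Tcra had 6 constant sites of 16 day 0 control peaks, Igk 5 of 14 and Tcrb 5 of 9. Tsix, the antisense partner of the X-inactivation RNA, had 3 constant sites of 4, none with SMARCA5. Myc and Sox9 had a day 0 control peak and no constant site.

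For CTCF, cohesin and the ISWI remodellers 9 of 20 genes had a constant site (45.0%, 25.8 to 65.8). Ctcfl, the germline paralogue of Ctcf, had 4, of which 3 had SMARCA5. Pds5b, a cohesin regulator, had 3, as did the remodeller gene Baz1b, and the cohesin gene Smc3 had 2. Ctcf itself had 3 day 0 control peaks and none was constant, and those of Wapl, Pds5a and Baz2a were not constant either.

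The remaining symbol lists gave 5 of 16 neural, 9 of 16 haematopoietic and 14 of 20 housekeeping genes with a constant site. Nes, which encodes the intermediate filament nestin, and the neuronal tubulin gene Tubb3 had 3 constant sites each, all with SMARCA5. Neurog2 had 2, and Sox1 and Nkx2-2 had day 0 control peaks but no constant site. Spi1 had 2, and Ptprc, Gata2 and Runx1 had 1 each, while the day 0 control peaks of Tal1, Cd34 and Cd4 were not constant. Among housekeeping genes Hprt had 2, both without SMARCA5, Ywhaz and Rplp0 had 2 each and Actb had 1, with SMARCA5. The day 0 control peaks of Gapdh and Eef1a1 were not constant.

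Gene families differed more widely than the symbol lists. A constant site lay within 10 kb of 54 of 85 ribosomal protein genes (63.5%, 52.9 to 73.0) and 226 of 373 Slc transporter genes (60.6%, 55.5 to 65.4), but of 125 of 397 Zfp zinc-finger genes (31.5%, 27.1 to 36.2), 11 of 53 keratin genes (20.8%, 12.0 to 33.5) and 28 of 82 histone genes (34.1%, 24.8 to 44.9). Olfactory receptor genes had one in 49 of 1106 cases (4.43%, 3.37 to 5.81) and vomeronasal receptor genes in 2 of 353 (0.567%, 0.156 to 2.04). These receptor families also had few day 0 control peaks, near 79 and 8 genes. Among genes with a day 0 control peak of either kind, 75.1% of all protein-coding genes had a constant site, and the families stood in another order: 82.4% of 34 histone genes, 81.0% of 279 Slc genes, 76.1% of 71 ribosomal protein genes, 64.7% of 17 keratin genes, 64.1% of 195 Zfp genes, 62.0% of 79 olfactory receptor genes and 2 of 8 vomeronasal receptor genes. The histone share was thus below that of all genes over the whole family and above it among genes with a day 0 control peak, and the ribosomal protein share was within 1 point of all genes in the latter. The histone family was taken by symbol, and both of its shares count H13, a histocompatibility gene and not a histone gene. H13 had 3 constant sites, the most in that family. Of the 57 clustered protocadherin genes, whose promoter choice involves CTCF, 38 had a constant site, among 40 with a day 0 control peak, and these genes overlap and share sites. The median gene length was 0.950 kb in the olfactory receptor family, 28.7 kb in the Slc family and 17.2 kb over all protein-coding genes, and the part of length in these shares was not tested.

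**Figure D5:**
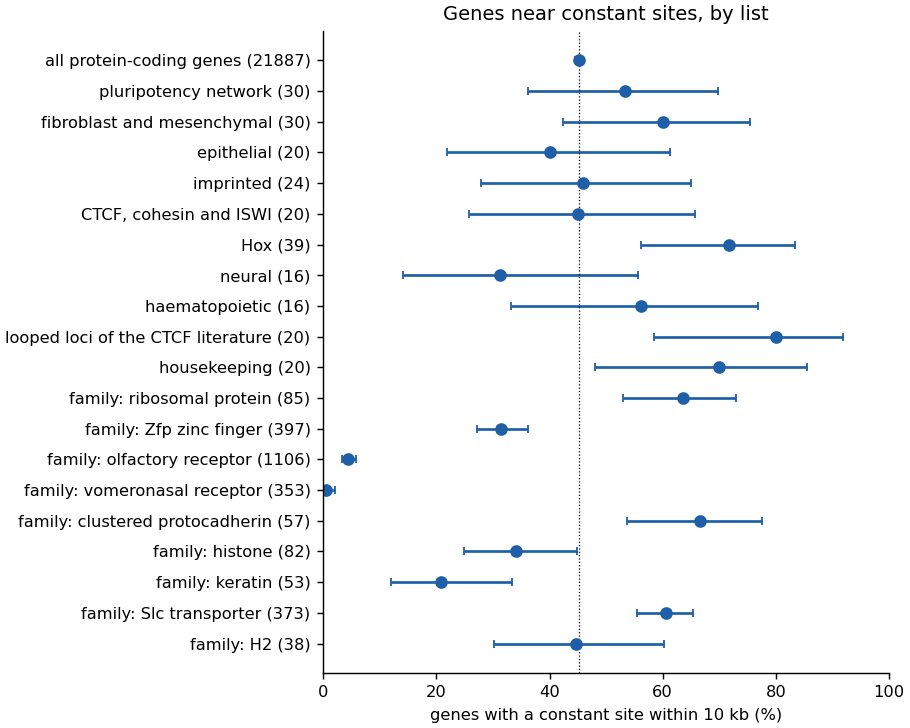
Percent of the genes of each list with a constant site within 10 kb (points, with Wilson 95% intervals and the number of genes in brackets), with the share of all protein-coding genes, 45.2%, as a dotted line. The olfactory (4.43%) and vomeronasal receptor families (0.567%) lie far to the left of the line, and the looped loci (16 of 20) and Hox genes (71.8%) to its right.

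Few promoters lay on a constant site. A promoter window overlapped a constant site in 827 of the 27025 genes of any type with a window (3.06%) and in 9 of the 65 ribosomal protein genes with one (13.8%), namely Rpl11, Rpl26, Rpl27, Rpl36a, Rpl37, Rpl5, Rplp0, Rps3a1 and Rps4x. A window lay on another day 0 control peak in 586 of the 27025 genes and in 4 of the 65. The higher ribosomal protein share was thus not shown to be particular to constant sites. None of the 940 olfactory receptor genes with a window had one on a constant site, and 1 had one on another day 0 control peak. There was also none among the 21 pluripotency genes with a window. The same held for the epithelial, imprinted, neural, haematopoietic and looped-loci lists, of 8 to 16 such genes. At the 3.06% of all genes, lists this short would hold few or none, so these zeros are near the background. In the symbol lists, 6 promoters were on a constant site: Snai1, a repressor of epithelial genes, Rplp0, Hoxa5, and 3 of the 15 CTCF, cohesin and ISWI genes with a window, Pds5b, the cohesin subunit gene Stag1 and Bptf, which encodes a subunit of the remodeller NURF. All but Hoxa5 had SMARCA5 there, and the full core motif was found in Rplp0 alone.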

How the data were processed

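The 31 ChIP samples had 16 peak lists, while 28 input samples were left out. The build was mm10, and deepTools, HOMER, MACS2, Picard, SAMtools, bedtools, Bowtie2, Trim Galore and FastQC were used, per the submitters' processing notes. The sources used here do not give versions, thresholds, pooling, or which samples went through ChIPmentation in place of standard ChIP. Each file lists 400 bp intervals, and the score that the authors deposited is 0 in every line, so depth and peak height are unknown and no list could be made stricter. The lists fall into 4 sets with common start positions, which can raise overlaps within a set.

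Overlap was 1 bp or more. Shares have Wilson and differences Newcombe 95% intervals, which treat sites as independent. Gene spans were those of RefSeq on GRCm38.p6, which is mm10, and start sites, strands and sequence from RefSeq promoter windows, none of them on chromosome 18. With no genome sequence used here, the motif planned over whole peaks was searched in promoter windows alone, and exons and introns were not assigned. All 234 genes of the 10 symbol lists were matched (Nespas as Gnasas1), and 9 families were taken by symbol. The members, lists and tests were chosen with earlier results of these data known. Named genes are, per list, up to 4 with the most constant sites and up to 4 with a day 0 control peak and none, the 10 protein-coding genes with the most, and those of the 5 densest windows and 5 longest gaps; other promoters, families and genes in gaps were named after their values were seen. Some genes that this rule names are not reported here. The overlap, share and motif routines were tested on simulated lists. Alternatives were a 50% reciprocal overlap, leaving out lists, other distances and other comparison classes. Computations used Python 3.11.15, NumPy 2.4.6, pandas 2.3.3 and matplotlib 3.10.9.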

Additional observations from a re-analysis of the deposited data

How the results depend on the processing

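Of 118 alternatives, 112 kept the direction and the side of 0, or for counts and shares with no difference stayed within a set limit. For the number of constant sites, 16520 as reported, that limit was wide: it took in 19699 but not 24818. Many of the alternatives left out 1 list. Unless that list was the day 0 or day 12 Ctcf shRNA list, there were at most 16591 constant sites. Such alternatives used nearly the same sites and could hardly change a result, so the tally is no measure of robustness. The number of constant sites was 24818 with only the 6 other control lists and 16298 with a reciprocal overlap of 50%; leaving out 1 list at a time gave 16520 to 19699, the highest without the day 12 Ctcf shRNA list. Leaving out 1 list at a time, the SMARCA5 difference ran from 22.1 to 24.8 points, the difference inside protein-coding genes from −4.98 to −3.77, the upstream difference from 17.4 to 18.8 and the autosomal excess over X from 10.7 to 15.0; without both the day 0 and day 12 Ctcf shRNA lists that excess was 5.00 points, and 13.4 without the 3 day 10 lists. The difference within 10 kb of a gene ran from 0.982 to 2.03 points and was 4.22 within 50 kb and −2.45 within 2.5 kb. That was the only reversal among the 118 alternatives. A setting not counted there left out the day 0 and day 12 Ctcf shRNA lists and the 3 day 10 lists together. With it the X order also turned, with 87.7% of X peaks held against 86.4% of autosomal peaks. The share of genes with a constant site followed the distance allowed, at 32.1% within 2.5 kb and 71.4% within 50 kb. With a reciprocal overlap of 50% in the rule, which by its construction drops shifted peaks, 88.8% of constant sites were within 50 bp of the ESC centre. The upstream, X chromosome, centred-motif and position-shift alternatives were chosen after seeing the data. The comparison of upstream sides, the motif's strand and the split of constant sites by SMARCA5 were also not part of the plan. Nor was the contrast of near misses by the list they lacked. No paired analysis was possible because each group has 1 list and the lists carry no replicate number.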

Other observations

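Between protein-coding genes, the flanking genes of constant sites had nearly the same orientations as those of other day 0 control peaks. Where the strand of the nearest gene on each side was known, 30.3% of 5693 constant sites and 30.03% of 3956 others lay between divergent genes, a difference of 0.252 points with an interval that included 0 (−1.61 to 2.11). Convergent genes flanked 18.6% and 16.9%, a difference of 1.67 points (0.110 to 3.20), and genes in tandem 51.1% and 53.0% (difference −1.92 points, −3.94 to 0.109). The strand of a flanking gene was not known for 32.7% of the constant sites and 30.8% of the others in this class.

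Promoter windows whose own 300 bases contained the centre of the peak held the core motif in 152 of 635 cases at constant sites (23.9%, 20.8 to 27.4) and in 53 of 389 at other day 0 control peaks (13.6%, 10.6 to 17.4).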
